A study of Mus musculus with 24 samples.

Results

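The comparison described here is the oxygen response of mouse fetal cortex cultures at the later labelled culture time minus the response at the earlier one. The response at each time is the log2 level at 3% O2 minus that at 21% O2, and the difference is the response labelled 13 d minus the response labelled 48 h. It used the 12 cortex arrays of the 24 arrays in the series and every probe set with a gene symbol, 23410 of 28856. The study profiled primary cultures of C57Bl/6 cortex and midbrain, taken at embryonic day 14, on whole-transcript gene arrays. All cortex groups shared strain, stage, tissue, expansion medium and array run 2, and each held 3 arrays. The groups were 48 h at 3% O2, 48 h at 21% O2, 13 d at 3% O2 and 13 d at 21% O2, the lower oxygen level being supplied as a gas mixture with nitrogen and carbon dioxide. Nothing in the labels tells whether the 3 arrays of a group are separate cultures or animals. The p-values therefore reflect the variation among arrays, part or all of which may be technical.

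In low oxygen, prolyl hydroxylases lose activity and hypoxia-inducible factors (HIF) accumulate, which raises genes of glucose uptake, glycolysis, lactate export and mitochondrial removal. The integrated stress response is a separate route, in which the transcription factor ATF4 raises amino acid synthesis and import genes when amino acids run short or proteins misfold. Notch signalling keeps neural stem cells of the fetal cortex from becoming neurons, and these cells give rise to neurons, astrocytes and oligodendrocytes in culture.

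Sox2, a stem cell transcription factor, lay between 11.39 and 12.32 in the 12 cortex arrays. Nes, the stem cell filament nestin, lay between 11.14 and 12.16. The mean log2 level of 23 neuron markers was 10.81 ± 0.02 (SD, n = 3) at 21% O2 labelled 13 d and 8.77 ± 0.15 (SD, n = 3) at 21% O2 labelled 48 h. The mean of 16 oligodendrocyte markers went the other way, 7.88 ± 0.02 (SD, n = 3) labelled 13 d and 10.07 ± 0.68 (SD, n = 3) labelled 48 h. In midbrain the same labels held the opposite order. There the neuron markers averaged 11.34 ± 0.03 (SD, n = 3) at 21% O2 labelled 48 h and 8.00 ± 0.05 (SD, n = 3) labelled 13 d, and the oligodendrocyte markers 7.83 ± 0.13 and 9.83 ± 0.04 (SD, n = 3 each). Cortex and midbrain thus ran opposite to each other under the time labels, and times are given as labelled throughout. In bulk samples, fewer cells of a type and less RNA per cell cannot be told apart.

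Replicate 1 at 21% O2 labelled 48 h stood apart. Its oligodendrocyte mean was 9.29 against 10.50 and 10.42 in replicates 2 and 3, and its glycolysis mean was 10.71 against 11.18 and 11.09. It correlated with these arrays at 0.9864 and 0.9920, while every other cortex replicate pair lay between 0.9934 and 0.9986. Gene list counts that its omission moved by more than 1.5 times are also given without this array. Replicate 1 at 3% O2 labelled 48 h correlated at 0.9934 with each of replicates 2 and 3, which correlated with each other at 0.9980. Its integrated stress mean was 10.25 against 10.03 and 9.98.

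The oxygen response differed between the labelled times at 967 probe sets by limma at an adjusted p below 0.05, which is 4.13% of those tested. The response was more positive at 13 d for 446 (1.91%) and more negative for 521 (2.23%), and the median difference of all probe sets was -0.01. Without replicate 1 at 21% O2 labelled 48 h the count was 2970 (12.7%), 1405 more positive (6%) and 1565 more negative (6.69%), and list counts without this array are to be read against these shares. Without replicate 2 it was 538 and without replicate 3 it was 429. Leaving out replicate 1 at 3% O2 labelled 48 h gave 660 and, in the arrays labelled 13 d, 542 and 524 without replicates 1 and 2 at 3% O2 and 567 and 600 without replicates 2 and 3 at 21% O2. At an unadjusted p below 0.05, 3844 probe sets passed (16.4%), 1739 more positive (7.43%) and 2105 more negative (8.99%). The fit of the 12 cortex arrays alone gave 377 (1.61%), 177 more positive (0.756%) and 200 more negative (0.854%), of which 344 (1.47% of those tested) were among the 967, 161 more positive (0.688%) and 183 more negative (0.782%). Genes described in most detail passed in both fits.

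Most of these differences came with a response that passed at 48 h and did not pass at 13 d. At 48 h, 2886 probe sets (12.3%) passed, 1462 higher (6.25%) and 1424 lower (6.08%) at 3% O2. At 13 d, 142 (0.607%) passed, 127 higher (0.543%) and 15 lower (0.0641%), and with array weights 464 were higher and 351 lower. Leaving out an array labelled 13 d gave 93, 68 and 82 without replicates 1, 2 and 3 at 3% O2 and 91 and 75 without replicates 2 and 3 at 21% O2. Without replicate 1 at 21% O2 labelled 48 h 225 passed at 13 d, and without replicate 3 there 1725 passed at 48 h. Of the 446 more positive probe sets, 367 fell at 48 h and did not pass at 13 d, 28 rose at 13 d and did not pass at 48 h, 7 rose at both times, 3 fell and then rose, and 41 passed at neither. Of the 521 more negative ones, 478 rose at 48 h and did not pass at 13 d, 3 rose at both, 3 fell at 13 d alone and 37 passed at neither. In 152 of the 446 and in 103 of the 521 the 21% O2 means of the labelled times lay further apart than the 3% O2 means did. Among the 38 more positive probe sets that rose at 13 d this held for 28. These responses share arrays with the difference, so the patterns describe it and add no separate support.

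**Figure D1:**
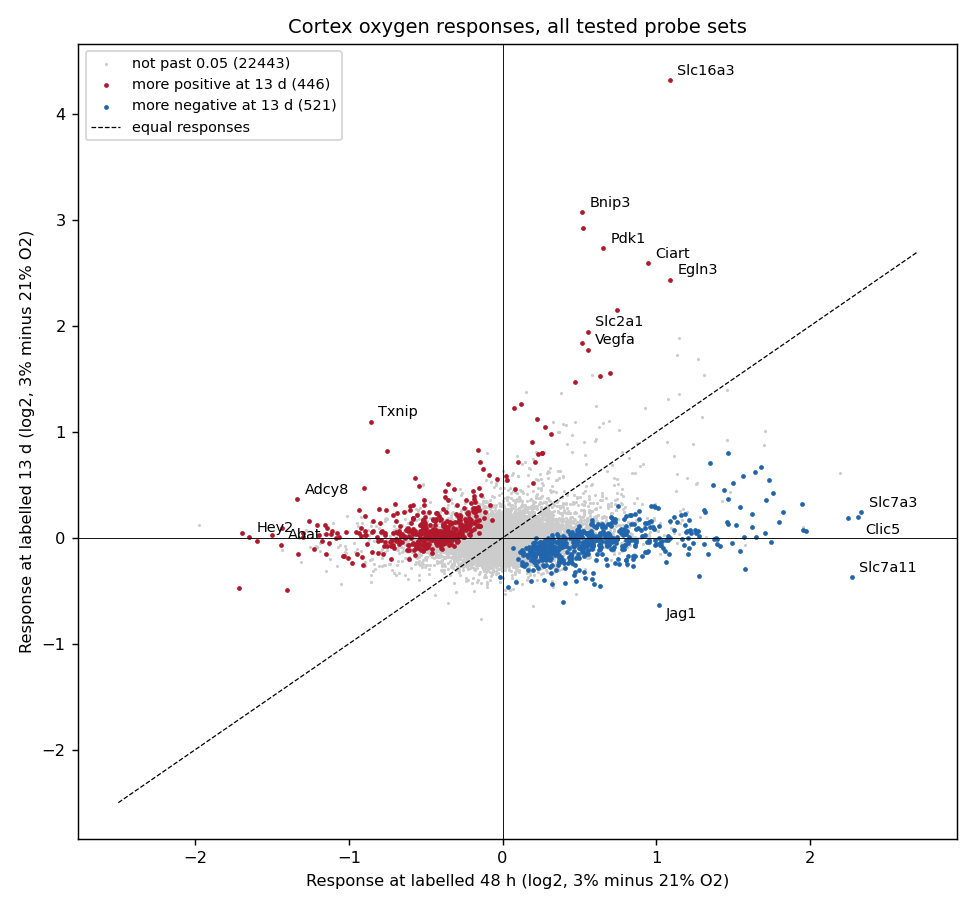
Each point is a probe set, with the log2 oxygen response (3% minus 21% O2) labelled 48 h on the horizontal axis and that labelled 13 d on the vertical axis, and probe sets whose responses differ by limma at an adjusted p below 0.05 are coloured. The 967 coloured probe sets lie mostly along the horizontal axis, while Slc16a3, Bnip3 and Pdk1 lie high on the vertical axis.

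Slc16a3, Bnip3 and Pdk1, all HIF targets, had the highest positive differences among the named genes, and their 21% O2 arrays labelled 13 d were the low ones. The promoters of 3 HIF targets, Slc16a3, Bnip3 and Egln3, are shown because their transcripts rose at 13 d by more than at 48 h. They are RefSeq windows on GRCm38.p6 from 250 bases before to 50 after the gene start, Slc16a3 at chr11:120948817-120949116 on the plus strand, Bnip3 at chr7:138909457-138909756 and Egln3 at chr12:54203825-54204124, both on the minus strand. Capitals mark the hypoxia response element core, ACGTG or GCGTG on either strand, whose first form overlaps the E-box CACGTG.
Slc16a3: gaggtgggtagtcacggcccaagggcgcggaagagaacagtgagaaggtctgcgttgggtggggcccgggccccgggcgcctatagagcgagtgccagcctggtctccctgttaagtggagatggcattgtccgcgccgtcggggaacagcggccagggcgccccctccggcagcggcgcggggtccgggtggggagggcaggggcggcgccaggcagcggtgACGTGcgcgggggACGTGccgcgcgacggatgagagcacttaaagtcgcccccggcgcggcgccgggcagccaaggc
Bnip3: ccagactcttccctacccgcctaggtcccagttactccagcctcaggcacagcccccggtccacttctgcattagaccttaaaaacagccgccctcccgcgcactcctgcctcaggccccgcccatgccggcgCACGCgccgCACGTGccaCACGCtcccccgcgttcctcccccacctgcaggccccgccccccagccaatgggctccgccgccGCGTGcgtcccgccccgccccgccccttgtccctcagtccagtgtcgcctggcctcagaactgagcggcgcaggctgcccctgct
Egln3: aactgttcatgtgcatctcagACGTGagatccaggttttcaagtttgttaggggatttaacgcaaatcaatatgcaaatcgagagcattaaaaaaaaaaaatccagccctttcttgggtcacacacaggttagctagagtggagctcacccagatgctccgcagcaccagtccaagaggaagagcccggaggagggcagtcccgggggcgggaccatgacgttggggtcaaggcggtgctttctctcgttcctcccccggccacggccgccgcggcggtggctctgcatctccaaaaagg
The core was in 43.8% of all 32851 windows, in 58.5% of the 455 windows of genes called more positive and in 61.3% of the 470 windows of genes called more negative. Matches of these letters are a description and not evidence of binding.

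Slc16a3, the lactate exporter MCT4, had the highest difference among the named genes. In the arrays labelled 13 d it measured 7.47, 7.71 and 7.64 at 21% O2 and 11.86, 11.99 and 11.94 at 3% O2. In the arrays labelled 48 h it measured 10.43, 11.33 and 11.23 at 21% O2 and 12.37, 11.98 and 11.90 at 3% O2. The groups did not overlap between oxygen levels at either time, and the 21% O2 arrays labelled 13 d lay lowest. The response was 4.32 at 13 d (20.01-fold) and 1.09 at 48 h (2.131-fold), a difference of 3.23 ± 0.42 (SE, limma adjusted p = 0.000353). Between the labelled times, 13 d minus 48 h, its level was -3.39 ± 0.30 (SE) at 21% O2 and -0.16 ± 0.30 (SE) at 3% O2.

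Bnip3 encodes a mitochondrial receptor for mitophagy. Its levels labelled 13 d were 8.77, 9.15 and 8.90 at 21% O2 and 11.87, 12.12 and 12.06 at 3% O2. Labelled 48 h they were 11.07, 12.38 and 12.20 at 21% O2 and 12.59, 12.41 and 12.21 at 3% O2. The oxygen levels overlapped at 48 h and were apart at 13 d. The difference was 2.56 ± 0.42 (SE, limma adjusted p = 0.00223), and a second Bnip3 probe set gave 2.40 ± 0.43 (SE).

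Pdk1 encodes the kinase that closes pyruvate entry into the mitochondrial citrate cycle. It measured 7.90, 8.14 and 7.86 at 21% O2 and 10.61, 10.77 and 10.72 at 3% O2 labelled 13 d. The values labelled 48 h were 9.96, 10.84 and 10.71 at 21% O2 and 11.35, 11.12 and 10.99 at 3% O2. Oxygen levels did not overlap at either time. The response rose at 13 d by 2.74 and was 0.66 at 48 h without passing (limma adjusted p = 0.0693), and the difference was 2.08 ± 0.32 (SE, adjusted p = 0.00132).

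Among 15 measured glycolysis enzymes, 5 had a more positive response at 13 d and the rest did not pass, with a median difference of 0.51. Without replicate 1 at 21% O2 labelled 48 h 10 passed, and the count was 4 to 6 when any other array was left out. Their oxygen response passed for 10 enzymes at 13 d and 3 at 48 h, all upward. Pfkl, a phosphofructokinase subunit, measured 9.27, 9.18 and 9.02 at 21% O2 and 10.94, 11.04 and 11.02 at 3% O2 labelled 13 d. Its values labelled 48 h were 10.47, 11.23 and 11.06 at 21% O2 and 11.58, 11.35 and 11.37 at 3% O2. Every 3% O2 value lay above the 21% O2 values of its time, and the difference was 1.33 ± 0.26 (SE, limma adjusted p = 0.00748). Ldha, which makes lactate, had a difference of 0.67 ± 0.15 (SE), and the aldolase Aldoa one of 0.56 ± 0.12 (SE), with adjusted p of 0.0144 and 0.0118. Pgk1 had 0.63 ± 0.19 (SE) and did not pass (adjusted p = 0.0703).

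Of 13 glucose and lactate transporters, 3 were more positive and the median difference was -0.11. The count was 2 in the fit of the 12 cortex arrays and 2 to 4 when 1 array was left out. Slc2a1, the glucose transporter GLUT1, measured 11.07, 10.81 and 10.81 at 21% O2 and 12.78, 12.89 and 12.85 at 3% O2 labelled 13 d. The levels labelled 48 h were 11.73, 12.39 and 12.32 at 21% O2 and 12.94, 12.60 and 12.55 at 3% O2. Again the 3% O2 arrays were above the 21% O2 arrays at both times, and the difference was 1.39 ± 0.29 (SE, limma adjusted p = 0.0101).

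The remaining HIF targets gave 13 more positive and 2 more negative members of 40, with a median difference of 0.41. These were 20 and 2 without replicate 1 at 21% O2 labelled 48 h, while without replicates 2 and 3 there they were 6 and 1, and 4 and 1. Without replicate 3 at 3% O2 labelled 48 h they were 8 and 4, and over the 6 arrays labelled 13 d the more positive ones numbered 7 to 9 and the more negative ones 0 or 1. Their response rose for 23 members at 13 d and 16 at 48 h. The mean level of the 40 was 8.82 ± 0.04 (SD, n = 3) at 21% O2 and 9.67 ± 0.05 at 3% O2 labelled 13 d, and 9.80 ± 0.26 and 10.27 ± 0.18 labelled 48 h. The 15 called members all had a lower mean at 21% O2 labelled 13 d than labelled 48 h. The mean of the 40 at 21% O2 was also lower, 8.82 against 9.80. Both 21% O2 means enter the difference by which the 15 were called, so their order describes them and adds no support. How many of the 25 members that did not pass had the same order is not given here.

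Egln3, the hydroxylase PHD3 that marks HIF for removal, measured 8.37, 8.45 and 8.45 at 21% O2 and 10.81, 10.88 and 10.89 at 3% O2 labelled 13 d. The same oxygen levels labelled 48 h held 10.59, 11.25 and 11.10, and 12.20, 12.08 and 11.93. Both times were free of overlap. The difference was 1.35 ± 0.30 (SE, limma adjusted p = 0.0152), and its call was lost without replicate 3 at 21% O2 labelled 48 h, within a range of 1.21 to 1.54 over the leave-one-out fits. Ddit4, an inhibitor of mTOR signalling, measured 9.74, 9.82 and 9.78 at 21% O2 and 10.87, 11.13 and 11.03 at 3% O2 labelled 13 d, where its groups were apart. Labelled 48 h it measured 10.99, 11.75 and 11.61, and 11.71, 11.53 and 11.34, which overlapped. It had a difference of 1.16 ± 0.25 (SE, adjusted p = 0.0123), with a response of 1.23 at 13 d and 0.07 at 48 h. Narf gave 0.71 ± 0.12 (SE, adjusted p = 0.00314). Kdm3a, a histone demethylase chosen after its values were seen, gave 0.76 ± 0.14 (SE, adjusted p = 0.00464) and passed in all 12 leave-one-out fits.

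Vegfa, the vascular growth factor, was less firm. Its levels labelled 48 h were 10.61, 11.98 and 11.79 at 21% O2 and 12.08, 12.06 and 11.91 at 3% O2. Labelled 13 d they were 9.63, 9.53 and 9.58, and 11.31, 11.42 and 11.35. Oxygen levels overlapped at 48 h through replicate 2 at 21% O2, while at 13 d they were apart. The difference was 1.22 ± 0.32 (SE, limma adjusted p = 0.0351), and it passed in only 1 of the 12 leave-one-out fits, that without replicate 1 at 21% O2 labelled 48 h, with a range of 0.96 to 1.65. P4ha1, a collagen prolyl hydroxylase, had 0.85 ± 0.22 (SE, adjusted p = 0.0347) and passed in 5 of 12 such fits, with a range of 0.74 to 1.02. Its call held only without replicate 1 or 2 at 3% O2 or replicate 1 at 21% O2 labelled 48 h, or without replicate 1 at either oxygen level labelled 13 d. Adm, the vasodilator adrenomedullin, had 0.74 ± 0.23 (SE) and did not pass (adjusted p = 0.0765). The HIF subunit genes Hif1a (-0.06 ± 0.09, SE) and Epas1 (-0.00 ± 0.35, SE) did not pass, with 95% intervals of -0.24 to 0.12 and -0.73 to 0.72. The members that were more negative were Ier3, a stress-induced survival gene, at -1.02 ± 0.23 (SE), whose call was lost without replicate 1 at 3% O2 labelled 13 d, and Hmox1, heme oxygenase, at -1.15. Hmox1, named after its values were seen, held its call only without replicate 2 or 3 at 3% O2 or replicate 1 at 21% O2 labelled 48 h, with a range of -1.26 to -0.94.

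**Figure D2:**
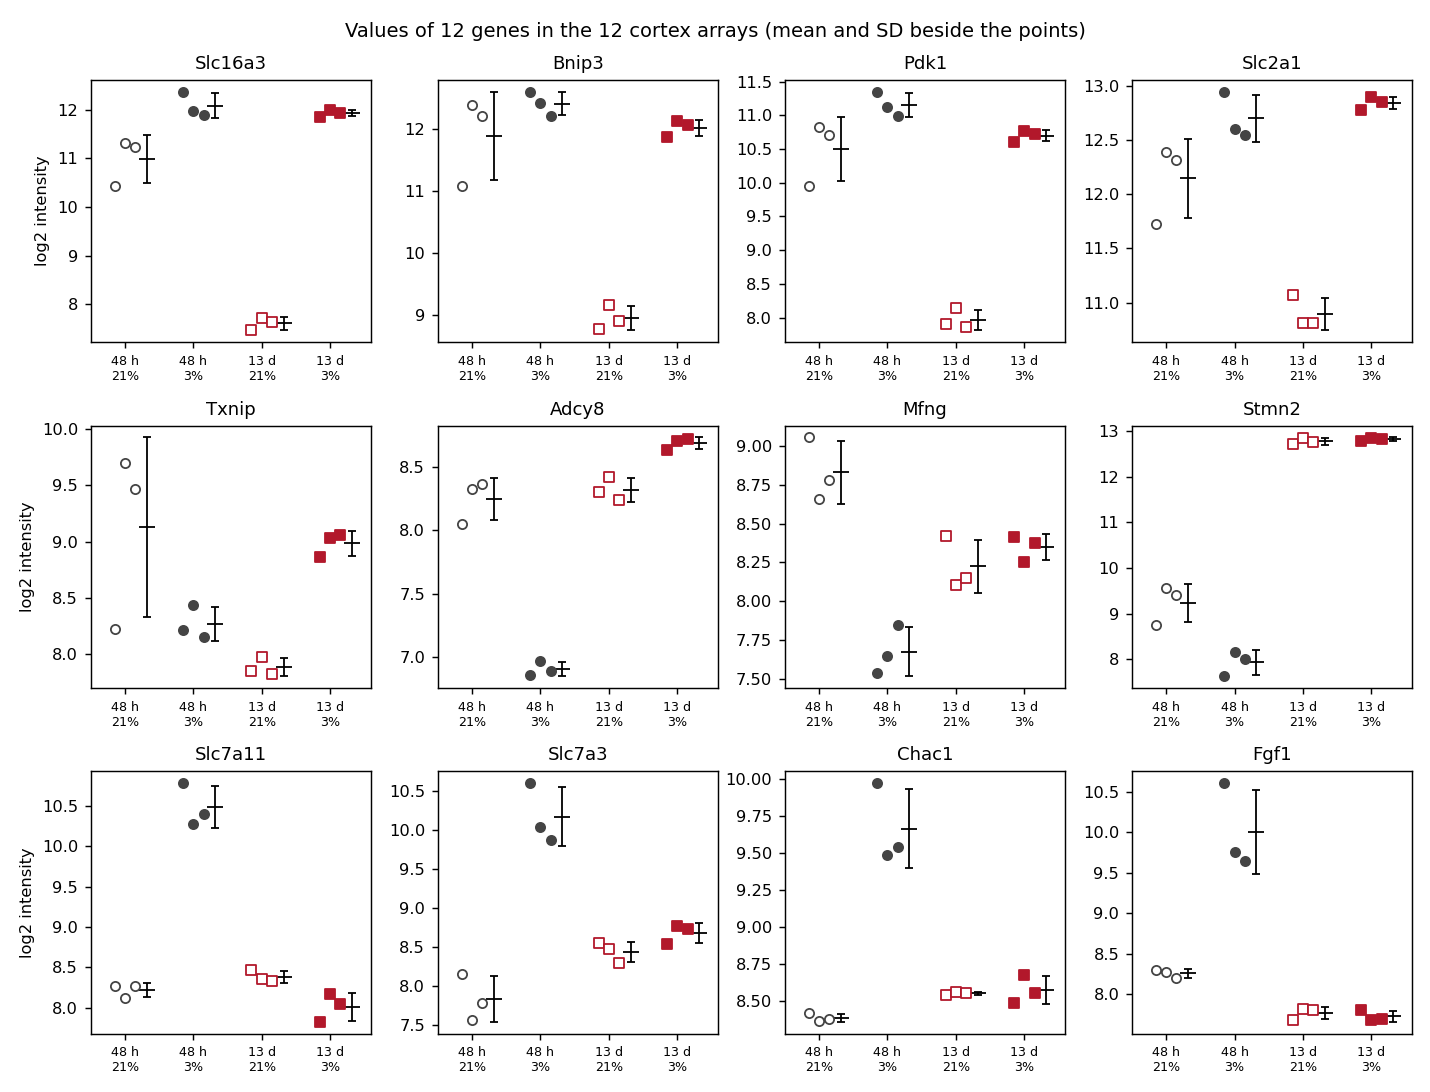
Log2 levels in the 12 cortex arrays are plotted for named genes, 1 point per array, grouped by labelled time and oxygen level, with the group mean and SD beside the points. Slc16a3, Bnip3 and Pdk1 sit lowest at 21% O2 labelled 13 d, while Slc7a11 sits highest at 3% O2 labelled 48 h.

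Txnip, an inhibitor of glucose uptake that is induced by glucose, moved in opposite directions at the labelled times. Its levels labelled 48 h were 8.22, 9.69 and 9.47 at 21% O2 and 8.22, 8.44 and 8.15 at 3% O2. In the arrays labelled 13 d they were 7.86, 7.98 and 7.83 at 21% O2 and 8.86, 9.04 and 9.06 at 3% O2. At 48 h replicate 1 at 21% O2 lay among the 3% O2 values and replicates 2 and 3 above them, while at 13 d the groups were apart. The response was -0.86 at 48 h (limma adjusted p = 0.0233) and 1.10 at 13 d (adjusted p = 0.0386), a difference of 1.95 ± 0.34 (SE, adjusted p = 0.0032). Its relative Arrdc4 had 1.04 ± 0.26 (SE, adjusted p = 0.0298), but passed only without replicate 2 or 3 at 3% O2 or replicate 1 at 21% O2 labelled 48 h, or replicate 1 at 3% O2 or replicate 2 at 21% O2 labelled 13 d (range 0.82 to 1.28), and not in the fit of the cortex arrays alone (adjusted p = 0.0997).

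Npy, a neuropeptide of interneurons, was the second of 3 genes called in both directions. It measured 10.10, 9.95 and 9.93 at 21% O2 and 10.52, 10.50 and 10.48 at 3% O2 labelled 13 d, and 7.68, 8.21 and 7.93 at 21% O2 and 7.65, 7.53 and 7.57 at 3% O2 labelled 48 h. The groups were apart at each time, with the order of the oxygen levels turned. The third was Drd2, a dopamine receptor, with a response of -0.36 at 48 h and 0.36 at 13 d, a difference of 0.71 ± 0.09 (SE, limma adjusted p = 0.000402). Its values labelled 13 d, 8.11, 8.10 and 8.11 at 21% O2 and 8.56, 8.41 and 8.43 at 3% O2, did not overlap.

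The lists of integrated stress genes and amino acid transporters had negative median differences. Their mean levels were highest in the 3% O2 arrays labelled 48 h. Of 31 integrated stress members measured, 11 were more negative and none more positive (14 and 0 at an unadjusted p below 0.05 by limma), with a median difference of -0.26. Of all probe sets, 8.99% were more negative at that unadjusted threshold. Their response rose for 18 members at 48 h and 2 at 13 d. The mean level labelled 48 h was 9.65, 9.57 and 9.60 at 21% O2 and 10.25, 10.03 and 9.98 at 3% O2, with no overlap. Labelled 13 d it was 9.58, 9.61 and 9.52, and 9.57, 9.62 and 9.63, which overlapped. Without replicate 1 at 21% O2 labelled 48 h 14 members were more negative, leaving out any other array gave 10 to 13, and the fit of the 12 cortex arrays gave 7.

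The promoters of 3 genes with this pattern are shown because they hold the C/EBP-ATF response element TGATGNAAN, searched on both strands, where capitals mark it. They are RefSeq windows on GRCm38.p6 of the same span, Slc7a11 at chr3:50443564-50443863 on the minus strand, Asns at chr6:7693160-7693459 on the minus strand and Chac1 at chr2:119350992-119351291 on the plus strand.
Slc7a11: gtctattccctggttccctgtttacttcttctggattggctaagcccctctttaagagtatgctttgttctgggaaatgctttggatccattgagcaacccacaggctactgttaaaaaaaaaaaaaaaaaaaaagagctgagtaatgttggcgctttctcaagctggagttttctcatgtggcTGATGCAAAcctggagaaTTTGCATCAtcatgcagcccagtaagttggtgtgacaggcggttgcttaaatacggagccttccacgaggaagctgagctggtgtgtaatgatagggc
Asns: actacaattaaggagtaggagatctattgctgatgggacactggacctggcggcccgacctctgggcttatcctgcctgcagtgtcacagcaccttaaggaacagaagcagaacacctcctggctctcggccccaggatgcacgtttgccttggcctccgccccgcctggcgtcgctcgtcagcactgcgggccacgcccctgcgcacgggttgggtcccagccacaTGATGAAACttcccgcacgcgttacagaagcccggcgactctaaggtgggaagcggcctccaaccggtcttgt
Chac1: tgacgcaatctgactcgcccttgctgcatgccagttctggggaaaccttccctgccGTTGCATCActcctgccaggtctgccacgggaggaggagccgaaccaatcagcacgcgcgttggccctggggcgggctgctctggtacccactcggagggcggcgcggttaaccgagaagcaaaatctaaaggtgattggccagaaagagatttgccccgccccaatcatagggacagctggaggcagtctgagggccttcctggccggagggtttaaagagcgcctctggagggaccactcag
The element was in 3.95% of all windows, 1.32% of those of genes called more positive and 6.38% of those of genes called more negative. It was in 4 of 10 windows of called members of the integrated stress list. A match is a description, and no window was found for Slc7a3 and Mfng.

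Slc7a11, the cystine importer of system xc-, had the most negative difference. It measured 8.27, 8.12 and 8.26 at 21% O2 and 10.78, 10.28 and 10.41 at 3% O2 labelled 48 h. The values labelled 13 d were 8.47, 8.36 and 8.32, and 7.82, 8.16 and 8.04. The 3% O2 arrays were above the 21% O2 arrays at 48 h and below them at 13 d, where the response did not pass (limma adjusted p = 0.638). The responses were 2.27 and -0.37, a difference of -2.64 ± 0.23 (SE, adjusted p = 1.59e-05).

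Of 15 amino acid transporters, 7 were more negative, with a median of -0.39. Without replicate 1 at 21% O2 labelled 48 h 9 were more negative and 1 more positive. The omission of any other array gave 6 or 7 more negative. Slc7a3, a cationic amino acid importer, measured 8.15, 7.57 and 7.79 at 21% O2 and 10.60, 10.04 and 9.87 at 3% O2 labelled 48 h, against 8.55, 8.47 and 8.29, and 8.53, 8.77 and 8.73 labelled 13 d. The groups were apart at 48 h and overlapped at 13 d, and the difference was -2.09 ± 0.35 (SE, limma adjusted p = 0.00223). Slc38a4, a small neutral amino acid transporter, had -2.06 ± 0.38 (SE), its 3% O2 arrays labelled 48 h being 9.83, 8.39 and 8.37 and all its other arrays between 6.57 and 6.93. Replicate 1 at 3% O2 was thus highest for both. Slc3a2, the heavy chain partner of several of these carriers, had -0.51 ± 0.08 (SE, adjusted p = 0.0011).

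Asns, asparagine synthetase, measured 11.22, 10.71 and 10.87 at 21% O2 and 12.44, 12.09 and 12.04 at 3% O2 labelled 48 h. Labelled 13 d it measured 11.29, 11.31 and 11.24, and 11.30, 11.41 and 11.34. The 3% O2 arrays labelled 48 h lay above all the others. The difference was -1.18 ± 0.23 (SE, limma adjusted p = 0.00786). Chac1, a glutathione-degrading enzyme, measured 8.42, 8.36 and 8.38 at 21% O2 and 9.97, 9.49 and 9.54 at 3% O2 labelled 48 h, and between 8.49 and 8.68 in the 6 arrays labelled 13 d. Its 3% O2 arrays labelled 48 h stood above the rest, with a difference of -1.26 ± 0.22 (SE). Pck2, mitochondrial phosphoenolpyruvate carboxykinase, had -1.49 ± 0.27 (SE) and Eif4ebp1, a repressor of translation, -0.89 ± 0.13 (SE). The limma adjusted p of the 3 were 0.00387, 0.00401 and 0.0007. Further called members, chosen after their values were seen, were Atf5, a stress transcription factor, at -1.06 ± 0.23 (SE), Nupr1 at -1.14 ± 0.25 (SE) and Aldh1l2, a mitochondrial folate enzyme, at -1.25 ± 0.25 (SE), each passing in all 12 leave-one-out fits. Atf4 itself, the transcription factor of this response, had -0.39 ± 0.12 (SE) and Trib3, its inhibitor, -0.64 ± 0.19 (SE), neither passing (adjusted p = 0.0676 and 0.0566).

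The antioxidant targets of NRF2 gave 6 more negative of 17, among them Slc7a11 and Gclm, a subunit of the glutathione synthesis enzyme, at -0.53 ± 0.10 (SE, limma adjusted p = 0.00451). Slc7a11 is also in the amino acid transporter list and Hmox1 in the list of other HIF targets. The response rose for 9 members at 48 h. The count of more negative members was 7 without replicate 1 at 21% O2 labelled 48 h. It was 3 without replicate 1 at 3% O2 or replicate 3 at 21% O2 labelled 48 h, and also without replicate 1 or 3 at 3% O2 or replicate 1 or 2 at 21% O2 labelled 13 d.

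Differences of Notch pathway genes ran both ways. Of 18 measured, 4 were more positive and 1 more negative, with a median difference of 0.43, and their response fell for 8 and rose for 2 at 48 h. Leaving out replicate 1 at 21% O2 labelled 48 h gave 9 more positive and 2 more negative members. In the fit of the 12 cortex arrays alone 2 were more positive and 1 more negative, as they were without replicate 2 or 3 at 21% O2 labelled 48 h or replicate 1 or 2 at 3% O2 labelled 13 d. Mfng, a glycosyltransferase that modifies Notch receptors, measured 9.05, 8.66 and 8.78 at 21% O2 and 7.54, 7.65 and 7.85 at 3% O2 labelled 48 h, and 8.42, 8.11 and 8.15, and 8.42, 8.25 and 8.37 labelled 13 d. The oxygen levels were apart at 48 h and overlapped at 13 d. The difference was 1.28 ± 0.14 (SE, limma adjusted p = 6.4e-05). Dll1, a Notch ligand, measured 10.05, 10.39 and 10.41 at 21% O2 and 8.85, 9.33 and 9.33 at 3% O2 labelled 48 h, and 8.86, 8.68 and 8.68, and 8.94, 8.73 and 8.67 labelled 13 d. It too was apart at 48 h and overlapping at 13 d, with a difference of 1.16 ± 0.16 (SE, adjusted p = 0.000566).

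Jag1, another Notch ligand, went the other way. It measured 9.15, 7.87 and 8.34 at 21% O2 and 9.62, 9.40 and 9.39 at 3% O2 labelled 48 h, and 9.86, 9.58 and 9.57, and 9.06, 8.95 and 9.09 labelled 13 d. The 3% O2 arrays were higher at 48 h and lower at 13 d, where the response (-0.63) did not pass (limma adjusted p = 0.207). The difference was -1.65 ± 0.26 (SE, limma adjusted p = 0.00167). Hey2 and Hes5, repressors downstream of Notch, had 1.65 ± 0.39 and 1.31 ± 0.32 (SE), with adjusted p of 0.0204 and 0.0243 that became 0.102 and 0.161 in the fit of the cortex arrays alone. They passed in 7 and 5 of the 12 leave-one-out fits, Hey2 losing its call without replicate 2 or 3 at 21% O2 labelled 48 h, replicate 1 or 2 at 3% O2 labelled 13 d, or replicate 3 at 21% O2 labelled 13 d. Hes5 held its call only without replicate 2 or 3 at 3% O2 or replicate 1 at 21% O2 labelled 48 h, or replicate 3 at either oxygen level labelled 13 d. The ranges were 1.33 to 2.14 and 1.00 to 1.67.

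Neuron markers were at their highest labelled 13 d and their oxygen response differed with time in part. Of 23 measured, 5 were more positive and 1 more negative, with a median difference of 0.32, and their response fell for 10 and rose for 1 at 48 h. When replicate 1 at 21% O2 labelled 48 h was left out, 11 were more positive and 2 more negative. In the fit of the 12 cortex arrays alone 2 were more positive and 1 more negative, as they were without replicate 3 at 21% O2 labelled 48 h, replicate 1 at 3% O2 or replicate 2 or 3 at 21% O2 labelled 13 d. The more positive ones numbered 3 without replicate 1 at 3% O2 or 2 at 21% O2 labelled 48 h, or replicate 2 at 3% O2 labelled 13 d. Stmn2, a growth cone protein, measured 8.76, 9.55 and 9.40 at 21% O2 and 7.64, 8.16 and 8.02 at 3% O2 labelled 48 h, and 12.71, 12.85 and 12.76, and 12.79, 12.86 and 12.83 labelled 13 d. The oxygen levels were apart at 48 h and overlapped at 13 d, and the difference was 1.35 ± 0.26 (SE, limma adjusted p = 0.00653). Syt1, a synaptic vesicle calcium sensor, measured 9.27, 9.17 and 9.28 at 21% O2 and 8.30, 8.29 and 8.37 at 3% O2 labelled 48 h, and between 11.65 and 11.83 in the 6 arrays labelled 13 d. Its groups were apart at 48 h, and the difference was 0.93 ± 0.13 (SE, adjusted p = 0.00069). Nefl, the neurofilament light chain, measured 8.28, 7.84 and 8.05 at 21% O2 and 8.64, 8.96 and 8.93 at 3% O2 labelled 48 h. Its 3% O2 arrays were the higher ones there, and the difference was -0.88 ± 0.16 (SE, adjusted p = 0.00511).

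Genes that drive progenitors into neurons gave 4 more positive of 16, with a median of 0.21, and 3 to 6 when 1 array was left out. Neurod1, a proneural factor, measured 6.84, 6.52 and 6.78 at 21% O2 and 5.87, 5.84 and 5.56 at 3% O2 labelled 48 h, and 8.72, 9.12 and 8.80, and 8.87, 9.03 and 8.91 labelled 13 d. Oxygen levels overlapped at 13 d alone, and the difference was 1.01 ± 0.17 (SE, limma adjusted p = 0.00224). Btg2, an antiproliferative p53 target, measured 10.14, 10.30 and 10.26 at 21% O2 and 9.05, 9.14 and 9.06 at 3% O2 labelled 48 h, and 8.86, 8.65 and 8.68, and 8.55, 8.54 and 8.63 labelled 13 d. The 3% O2 arrays were lower at both times, although the response labelled 13 d (-0.15) did not pass (limma adjusted p = 0.858), and the difference was 0.99 ± 0.14 (SE, adjusted p = 0.000575). Sox4, a factor of early neurons, had 0.67 ± 0.09 (SE, adjusted p = 0.00057). Of 17 interneuron and ventral forebrain genes, 5 were more positive, with a median of 0.36, among them Npy, against 7 without replicate 1 at 21% O2 labelled 48 h and 2 in the fit of the 12 cortex arrays alone. It was 3 without replicate 1 at 3% O2 or replicate 2 or 3 at 21% O2 labelled 48 h, and also without replicate 1 or 3 at 3% O2 or replicate 2 or 3 at 21% O2 labelled 13 d.

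In the fit of all arrays the other lists had few members past the threshold. Among genes of pyruvate use and glucose sensing, 4 of 15 were more positive, which included Pdk1, Txnip and Arrdc4. In the fit of the 12 cortex arrays 2 were more positive. Without replicate 1 at 21% O2 labelled 48 h 5 were more positive and 1 more negative. Leaving out 1 array gave 2 to 5, with 2 without replicate 1 at 3% O2 or replicate 2 or 3 at 21% O2 labelled 48 h, and also without replicate 2 or 3 at 3% O2 or replicate 1 or 3 at 21% O2 labelled 13 d. Of 13 p53 targets, 1 was more positive and 2 were more negative, among the latter Ccng1, a cyclin, at -0.51 ± 0.10 (SE, limma adjusted p = 0.0067), and without replicate 1 at 21% O2 labelled 48 h these counts were 1 and 7. Of 16 growth factor feedback genes 2 were more negative. Without that array 8 were more negative and 2 more positive, and without any other 0 to 3 were more negative. None of them, Spred1 (-0.37) included, passed without replicate 1 at 3% O2 or replicate 2 or 3 at 21% O2 labelled 48 h. The same held without replicate 2 at 3% O2 labelled 13 d. Of 17 clock genes 2 were more positive, of 16 immediate early genes 2 were more negative, and the cholesterol, BMP, stem cell, HIF regulator and respiratory chain lists each had 1 more positive member. In the fit without replicate 1 at 21% O2 labelled 48 h, the clock list had 5 more positive, the immediate early list 1 more positive and 7 more negative, the cholesterol list 7 more positive of 19, the stem cell list 6 more positive and 2 more negative of 20 and the BMP list 3 more positive and 1 more negative of 14. With this array in place and another left out, these 5 lists had at most 2 members past the threshold in either direction. The HIF regulator list had 2 more positive of 15 without replicate 1 at 21% O2 labelled 48 h. The same count came without replicate 2 or 3 at 3% O2 of that time. It was 0 without replicate 3 at 21% O2 labelled 48 h. Without replicate 3 at 3% O2 of either labelled time 1 member was more negative.

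Lists of other cell types had few members past the threshold with every array in the fit. By limma, 0 of 12 astrocyte genes (3 and 2 more positive and more negative at an unadjusted p below 0.05) and 0 of 16 oligodendrocyte genes (2 and 1) passed, where 7.43% and 8.99% of all probe sets passed unadjusted. The median difference of the oligodendrocyte genes was 0.51. Without replicate 1 at 21% O2 labelled 48 h, 5 astrocyte and 8 oligodendrocyte genes were more positive, against 6% of all probe sets, and the oligodendrocyte median was 1.03. The oligodendrocyte mean was 10.50 and 10.42 in replicates 2 and 3 at 21% O2 labelled 48 h, against 10.02 and 9.91 at 3% O2 and 9.29 and 9.35 in both replicate 1 arrays. Of 34 cell cycle genes 0 passed (0 and 1 unadjusted), of 15 endothelial genes 0 (0 and 5), of 18 pericyte and meningeal genes 0 (0 and 0) and of 22 collagen and matrix genes 0 (0 and 3). Without replicate 1 at 21% O2 labelled 48 h, 6.69% of all probe sets were more negative and 6% more positive. In that fit 2 of 34 cell cycle, 1 of 15 endothelial and 3 of 22 collagen and matrix genes were more negative. The more positive ones were 1 of 18 pericyte and meningeal genes and 1 of 22 collagen and matrix genes. Microglia gave 1 more negative of 16, P2ry12, and ependymal genes 1 more positive of 12, Foxj1, and neither passed in the fit of the cortex arrays alone. How much cell composition moved with the differences was not tested.

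**Figure D3:**
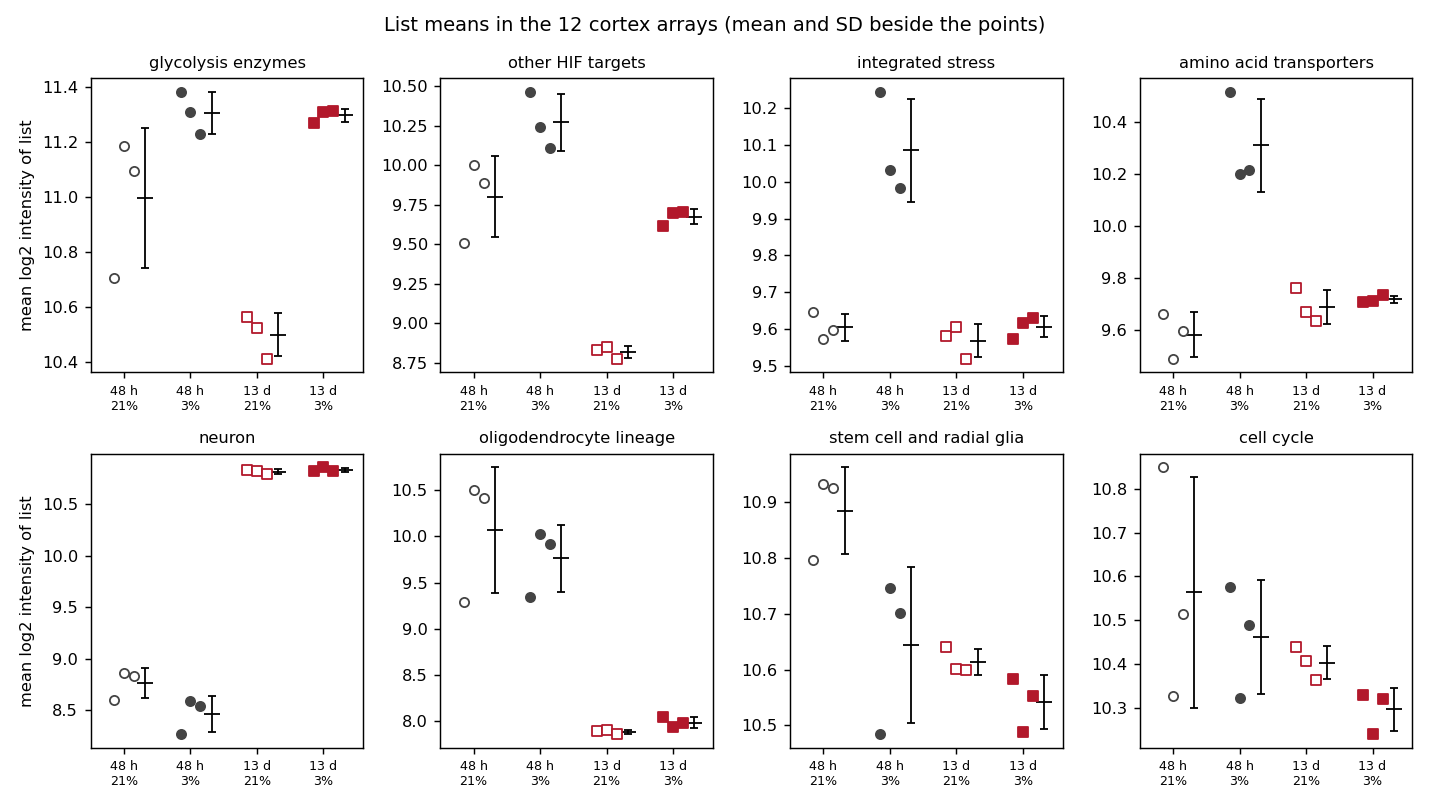
The mean log2 level of gene lists is plotted for each of the 12 cortex arrays, 1 point per array, with groups by labelled time and oxygen level and the group mean and SD beside the points. Replicate 1 at 21% O2 labelled 48 h lies below its group in glycolysis and oligodendrocyte genes, and the neuron mean is at least 10.79 in the arrays labelled 13 d and at most 8.86 in those labelled 48 h.

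**Figure D4:**
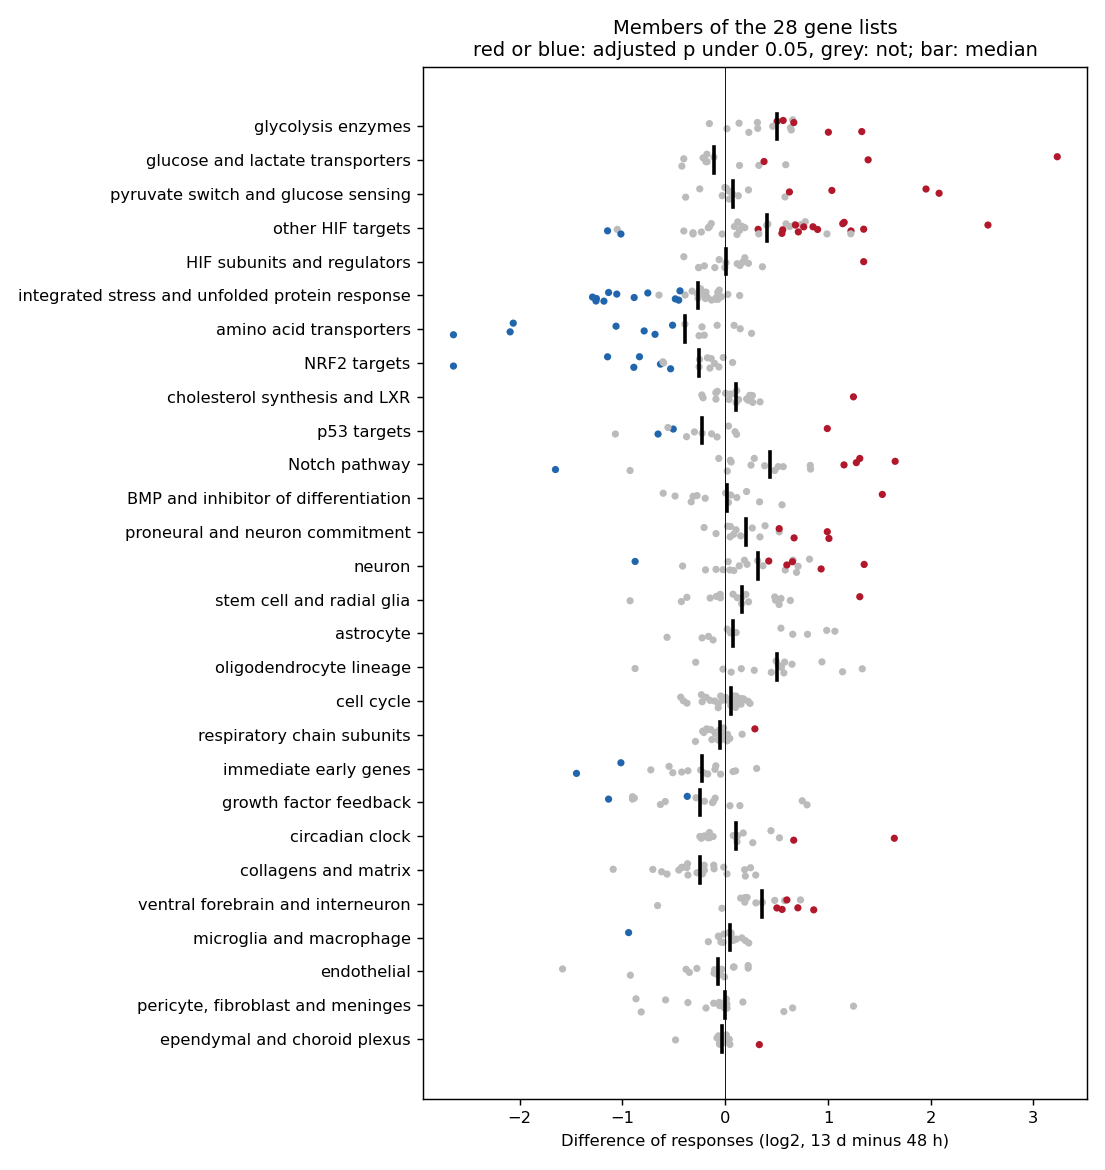
Each point is a measured gene of a list, plotted by its log2 difference of responses, with the list median as a line and called genes coloured. Oligodendrocyte and glycolysis genes have medians of 0.51, Notch genes 0.43 and other HIF targets 0.41, while amino acid transporters and the integrated stress list have -0.39 and -0.26. No oligodendrocyte gene is coloured.

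Further genes had large differences. Adcy8, a calcium-stimulated adenylyl cyclase, measured 8.05, 8.32 and 8.36 at 21% O2 and 6.87, 6.97 and 6.89 at 3% O2 labelled 48 h, and 8.30, 8.42 and 8.24, and 8.63, 8.70 and 8.72 labelled 13 d. The groups were apart at both times, the 3% O2 arrays being lower at 48 h and higher at 13 d, where the response (0.36) did not pass (limma adjusted p = 0.335). The difference was 1.70 ± 0.17 (SE, limma adjusted p = 4.36e-05). Fgf1, a fibroblast growth factor, measured 8.30, 8.28 and 8.19 at 21% O2 and 10.60, 9.76 and 9.64 at 3% O2 labelled 48 h, and 7.69, 7.82 and 7.80, and 7.80, 7.68 and 7.69 labelled 13 d. Its 3% O2 arrays labelled 48 h were above all the others. The difference was -1.79 ± 0.22 (SE, adjusted p = 0.000211).

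Among the other named genes, Igsf11 had 1.52 ± 0.32 (SE), Abat, which breaks down GABA, 1.38 ± 0.21 (SE), and Ciart, a clock repressor, 1.65 ± 0.34 (SE), the last with a second probe set at 1.41 ± 0.32 (SE). On the negative side were Clic5 at -2.12 ± 0.32, H60b, a ligand of a natural killer receptor, at -1.88 ± 0.28, Unc93b1, a carrier of Toll-like receptors, at -1.65 ± 0.22, Ifitm3, an interferon-induced antiviral protein, at -1.64 ± 0.35, Dhh, a hedgehog ligand, at -1.63 ± 0.31, and Chl1, a cell adhesion molecule, at -1.52 ± 0.18 (SE). In each of these 6 the 3% O2 arrays labelled 48 h lay above the 21% O2 arrays of that time. The 6 were chosen by differences from these same arrays, so this describes them and adds no support. The share of all probe sets without such overlap is not given here.

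The 12 midbrain arrays share no array with cortex, and the same contrast was computed there. The midbrain arrays labelled 13 d were array run 1 and all other arrays run 2, so only a run effect equal at both oxygen levels cancels. In midbrain 3536 probe sets (15.1%) passed, 1606 more positive (6.86%) and 1930 more negative (8.24%). Of the 446 probe sets more positive in cortex, 247 were more negative in midbrain, 7 more positive and 192 did not pass, with a median midbrain difference of -0.397. Of the 521 more negative in cortex, 295 were more positive in midbrain, 6 more negative and 220 did not pass, with a median of 0.445. Slc7a3 had a midbrain difference of 1.62 and Adcy8 of -1.66, each opposite to cortex. Lists were not all opposite. Of the 40 other HIF targets, 13 were more positive and 2 more negative in midbrain, with a median of 0.17. In cortex minus midbrain 11 of these were more positive and 8 more negative, with a median of 0.03. The integrated stress list did run opposite. Of its 31 members, 18 were more positive and 1 more negative in midbrain, with a median of 0.42 against -0.26 in cortex. Stmn2 was alike in sign, 0.98 against 1.35 in cortex, and the test between regions did not pass (limma adjusted p = 0.572).

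The cortex difference minus the midbrain difference passed at 3881 probe sets (16.6%), 2014 more positive (8.6%) and 1867 more negative (7.98%). With the labelled times of the cortex arrays exchanged, an alternative chosen after the values were seen, it passed at 373 (1.59%), 208 more positive (0.889%) and 165 more negative (0.705%). The exchange turns the sign of every cortex difference and changes no size. Whether the time labels account for the contrast between regions was not tested.

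**Figure D5:**
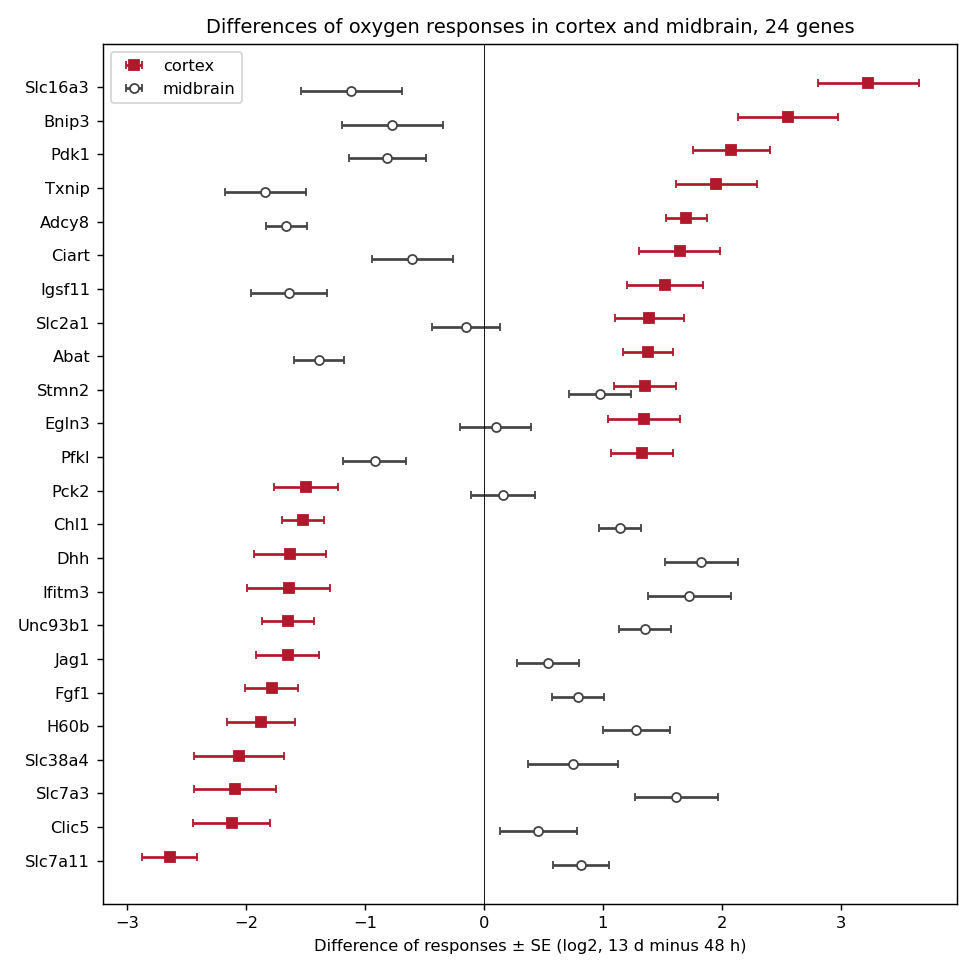
The log2 differences of responses (13 d minus 48 h) of the 24 genes with the most positive and most negative cortex values are plotted on the horizontal axis for cortex and midbrain, 1 gene per line, with bars of 1 SE. All 12 genes negative in cortex have positive midbrain values, and of the 12 positive ones only Stmn2 and Egln3 also do.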

How the data were processed

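Each sample's RNA was labelled with biotin and run on its own whole-transcript array. The authors deposited log2 values, described as normalized in the labels. Their scale was read from the values, which span 4.65 to 14.49, with cortex array medians of 7.355 to 7.410. For normalization, the method was not given in the sources used here. A change common to every gene on an array would be invisible. The number of arrays limits the precision.

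Groups came from the labels. Limma 3.58.1 in R 4.3.3 fitted 8 group means to all 24 arrays (16 residual degrees of freedom), followed by eBayes. Tests were two-sided, adjusted by Benjamini-Hochberg over 23410 probe sets, with a threshold of 0.05. The fit was tested on simulated data with independent noise, the same SD in every group and no outlying array. That test covers the working of the fit and not the calls reported here. Probe sets with 1 symbol numbered 21789 and those with several 1621; 5446 had none and were left out.

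The members, gene lists and naming rule were chosen with earlier results of these data known. Named genes are the 12 most positive and 12 most negative differences that passed in the fits of 24 and of 12 arrays, the 2 members of each of 28 lists with the smallest p, a panel of hypoxia and cell type genes, and genes whose responses passed in opposite directions. Clone-type symbols, small RNA and olfactory genes, Xist and Y-linked genes were passed over. Lists used the probe set with the highest mean. Alternatives were the 12 cortex arrays alone, quantile normalization, median centring, all or only brighter probe sets, trend and robust options, weighting of arrays, a replicate block, and each array left out in turn.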

Additional observations from a re-analysis of the deposited data

Results flagged for a closer look

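The oxygen response differed between the labelled times at 967 probe sets by a limma test of the difference itself, and the difference between cortex and midbrain in this contrast passed at 3881. The genes below were picked out because that test of the cortex difference passed both in the fit of all arrays and in the fit of the cortex arrays alone. Values are log2 differences, 13 d minus 48 h as labelled.

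The response was more positive at 13 d for these genes: Slc16a3 3.23, Bnip3 2.56, Pdk1 2.08, Txnip 1.95, Adcy8 1.70, Ciart 1.65, Igsf11 1.52, Slc2a1 1.39, Abat 1.38, Stmn2 1.35, Egln3 1.35, Pfkl 1.33, Aldoa 0.56, Narf 0.71, Btg2 0.99, Mfng 1.28, Dll1 1.16, Sox4 0.67, Syt1 0.93, Npy 0.86, Ldha 0.67, Ddit4 1.16, Neurod1 1.01 and Drd2 0.71.

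The response was more negative at 13 d for these genes: Slc7a11 -2.64, Clic5 -2.12, Slc7a3 -2.09, Slc38a4 -2.06, H60b -1.88, Fgf1 -1.79, Jag1 -1.65, Unc93b1 -1.65, Ifitm3 -1.64, Dhh -1.63, Chl1 -1.52, Pck2 -1.49, Eif4ebp1 -0.89, Chac1 -1.26, Slc3a2 -0.51, Gclm -0.53, Ccng1 -0.51, Nefl -0.88, Ier3 -1.02, Spred1 -0.37 and Asns -1.18.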

How the results depend on the processing

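The difference between the cortex responses passed at 967 probe sets and moved by over 1.5 times with the 12 cortex arrays alone (377), array weights (4323) and the replicate block (1596), and, in an alternative chosen after the data were seen, without both number 1 arrays labelled 48 h (2496). Leaving out 1 array gave 429 to 2970, and 392 of the 967 passed in all 12 such fits. The response labelled 48 h passed at 2886 and moved to 6299 with array weights, with 1725 to 4210 when 1 array was left out. The response labelled 13 d passed at 142, with 89 in the cortex arrays alone, 815 with array weights, 302 without both number 1 arrays labelled 48 h and 68 to 225 when 1 array was left out. The cortex minus midbrain difference passed at 3881, with 6541 under array weights, 373 with cortex times exchanged (also chosen after the data were seen) and 3326 to 5032 when 1 array was left out. The cause of these changes was not tested. Fits with arrays left out also held fewer arrays. More positive probe sets made up 46.1% of the calls of the difference, 52.1% with median centring, 35.3% without replicate 3 at 21% O2 labelled 13 d, 37.5% without replicate 3 at 3% O2 labelled 48 h and 56.4% without replicate 1 at 21% O2 labelled 13 d. Higher probe sets made up 89.4% of calls labelled 13 d and 56.9% with array weights, and 50.7% of calls labelled 48 h and 41.6% with median centring (1225 higher and 1723 lower).

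Same-numbered arrays at 3% and 21% O2 correlated at 0.29, 0.42 and -0.04 labelled 48 h and at -0.01, 0.23 and -0.37 labelled 13 d, so the numbers were not taken to pair the arrays, and the replicate block with 1596 calls is given here only. Genes that did not pass changed sign in some settings. Hif1a became 0.0006 without replicate 1 at 3% O2 labelled 48 h, within a leave-one-out range of -0.1255 to 0.0006. For Epas1 (difference of -0.0040) the values were 0.0026 with quantile normalization, 0.0079 with median centring, 0.2103 with array weights and 0.3028 without both number 1 arrays, and -0.2788 to 0.4351 when 1 array was left out. The leave-one-out range was -0.0447 to 0.1228 for Eomes and -0.1127 to 0.0691 for Olig2, which was 0.0099 with quantile normalization. Over the alternatives for the 94 named genes, 1744 values kept direction and side of the threshold, 78 newly passed, 119 no longer passed and 18 changed sign.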
